A study of Rattus norvegicus with 10 samples.

Results

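F11r and Icam5 encode adhesion molecules of the immunoglobulin superfamily, and their transcripts were followed here in CD11b+ cells taken from the hemorrhagic striatum of rats. They are 2 of the 32883 genes in the count table, and both passed the filter on low counts that 12199 genes passed. They were chosen by their values in the same comparison of rhCDNF with saline that is described below, so the size and direction of their difference between the groups is a description and carries no test. The libraries came from male SD rats, 12 weeks old per the methods, after intracerebral hemorrhage (ICH), which both groups had undergone. 5 libraries are of the ICH + saline group and 5 of the ICH + rhCDNF group, which received recombinant human CDNF (rhCDNF), a neurotrophic factor of the endoplasmic reticulum, in place of the saline vehicle. Per the methods the treatment went into the cerebral ventricle 1 h after the hemorrhage, the cells were isolated on day 3 with magnetic beads against CD11b, a surface integrin of myeloid cells, and n refers to animals. The dose given to the sequenced rats is not given in the sources used here. Libraries are named by the sequencing index in the column names, S1 to S5 for saline and S6 to S10 for rhCDNF, which is not the sample number of the labels.

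F11r encodes junctional adhesion molecule A (JAM-A), a protein of tight junctions in epithelium and endothelium that is also carried by platelets and leukocytes. It binds a second JAM-A on the facing cell, and its cytoplasmic tail holds scaffold proteins of the junction. Icam5 encodes telencephalin, an intercellular adhesion molecule best known from the dendrites of forebrain neurons, where it is a ligand of the leukocyte integrin LFA-1. Among the other genes of these families, Icam1 is the inducible ICAM of activated endothelium and myeloid cells, and Jam2 is a close relative of F11r.

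The count table gives Ensembl identifiers without symbols, and the reference table pairs no symbol with these identifiers. ENSRNOG00000004414 was taken as F11r and ENSRNOG00000020694 as Icam5 because their CPM values, counts scaled to library size, over the 10 libraries ran parallel to the levels of the gene of that name in a table of the same libraries that accompanies the paper. The log2 ratio of both measures had an SD of 0.0469 for F11r and 0.0621 for Icam5 over the libraries. For F11r the next best identifier had an SD 1.90 times as large and the next best gene one 1.73 times as large, and for Icam5 these were 2.49 and 1.90 times. No level of that table is printed here.

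The promoter sequences of both genes are shown because the transcripts were highest in the same libraries. They are RefSeq sequences of the build GRCr8, matched by symbol, both on the plus strand, and run from before the annotated start of the gene to shortly after it. The window of F11r lies at chr13:86405979-86406278 and that of Icam5 at chr8:27844530-27844829. The counts were made on another build, Rnor_6.0. Capitals mark matches, on either strand, to the letters CCAAT (the CCAAT box), GAGGAA (an ETS core as PU.1, the transcription factor of myeloid cells, binds it) and GGGCGG (a GC box), none of which overlap each other here.
F11r: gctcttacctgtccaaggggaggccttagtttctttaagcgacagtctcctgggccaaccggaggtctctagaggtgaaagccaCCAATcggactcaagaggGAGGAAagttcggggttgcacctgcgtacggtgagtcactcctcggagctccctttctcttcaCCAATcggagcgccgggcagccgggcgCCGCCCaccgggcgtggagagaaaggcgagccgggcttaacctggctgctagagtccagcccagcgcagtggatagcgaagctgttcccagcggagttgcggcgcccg
Icam5: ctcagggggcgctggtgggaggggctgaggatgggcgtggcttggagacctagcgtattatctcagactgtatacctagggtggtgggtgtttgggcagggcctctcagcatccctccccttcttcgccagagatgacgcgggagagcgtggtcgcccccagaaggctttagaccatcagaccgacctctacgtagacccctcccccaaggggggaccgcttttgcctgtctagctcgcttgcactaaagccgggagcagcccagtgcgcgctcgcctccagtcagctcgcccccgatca

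The F11r window held 2 matches to CCAAT, 1 to GAGGAA and 1 to GGGCGG, and the Icam5 window held 0 of each. Of 33469 RefSeq promoter windows of this length, 37.5% held CCAAT, 27.6% GAGGAA and 33.1% GGGCGG. The letters that mark the F11r window are therefore common, and the windows share none of these 3 motifs. In the same annotation Icam5 follows Icam1 and Icam4 on the chromosome and precedes Zglp1 and Fdx2.

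Total counts ranged from 14376582 to 16784638 per library, so that 1 CPM rests on 14.0 to 17.1 counts. CPM values carry the TMM scaling, which puts libraries on a common scale. Over all genes, edgeR's quasi-likelihood test with Benjamini-Hochberg adjustment called 0 of 12199 genes (0%) at an adjusted p under 0.05, and F11r and Icam5 are therefore not among genes called. DESeq2 called 8 of the 10531 genes it gave an adjusted p (0.076%), and edgeR's likelihood ratio test called 3 of 12199 (0.0246%). At an unadjusted p under 0.05 the quasi-likelihood test had 841 genes higher in the rhCDNF group (6.89%) and 670 lower (5.49%). Library S6 held the highest CPM of all libraries for 20.8% of the genes tested and library S9 for 8.96%. The column names carry no batch.

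F11r stood at a low to moderate level in every library. In the saline group it had 14.4 CPM in S1, 17.5 in S2, 19.5 in S3, 16.7 in S4 and 12.9 in S5. In the rhCDNF group it had 37.8 CPM in S6, 21.8 in S7, 17.6 in S8, 35.0 in S9 and 20.5 in S10. 2 rhCDNF libraries, S6 and S9, stood well above all others, S7 and S10 lay just above the saline range, and S8 lay within it. The groups therefore overlapped for F11r, with 4 of 5 rhCDNF libraries above every saline library, a pattern shared by 608 of the 12199 genes or 4.98% in that direction, those with 5 of 5 included. Saline libraries averaged 16.2 ± 2.6 CPM (SD, n = 5) and rhCDNF libraries 26.5 ± 9.19 CPM (SD, n = 5), which is 1.64 times as much. The log2 fold change fitted by edgeR was 0.71 (SE 0.21).

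Icam5 was at 22.1 CPM in S1, 18.8 in S2, 18.9 in S3, 21.6 in S4 and 17.2 in S5 of the saline group. In the rhCDNF group it was at 54.6 CPM in S6, 23.2 in S7, 26.8 in S8, 32.9 in S9 and 24.1 in S10. Every rhCDNF library lay above every saline library, and S6 lay far above the rest. 119 of the 12199 genes, or 0.975%, had all rhCDNF libraries above all saline libraries. The margin for Icam5 was narrow, since the lowest rhCDNF library, S7, has a 95% Poisson interval of 20.8 to 25.8 CPM and the highest saline library, S1, one of 19.9 to 24.4 CPM. These intervals cover counting error only. Saline libraries averaged 19.7 ± 2.06 CPM (SD, n = 5) and rhCDNF libraries 32.3 ± 13.01 CPM (SD, n = 5), again 1.64 times as much, with a log2 fold change of 0.71 (SE 0.21).

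**Figure D1:**
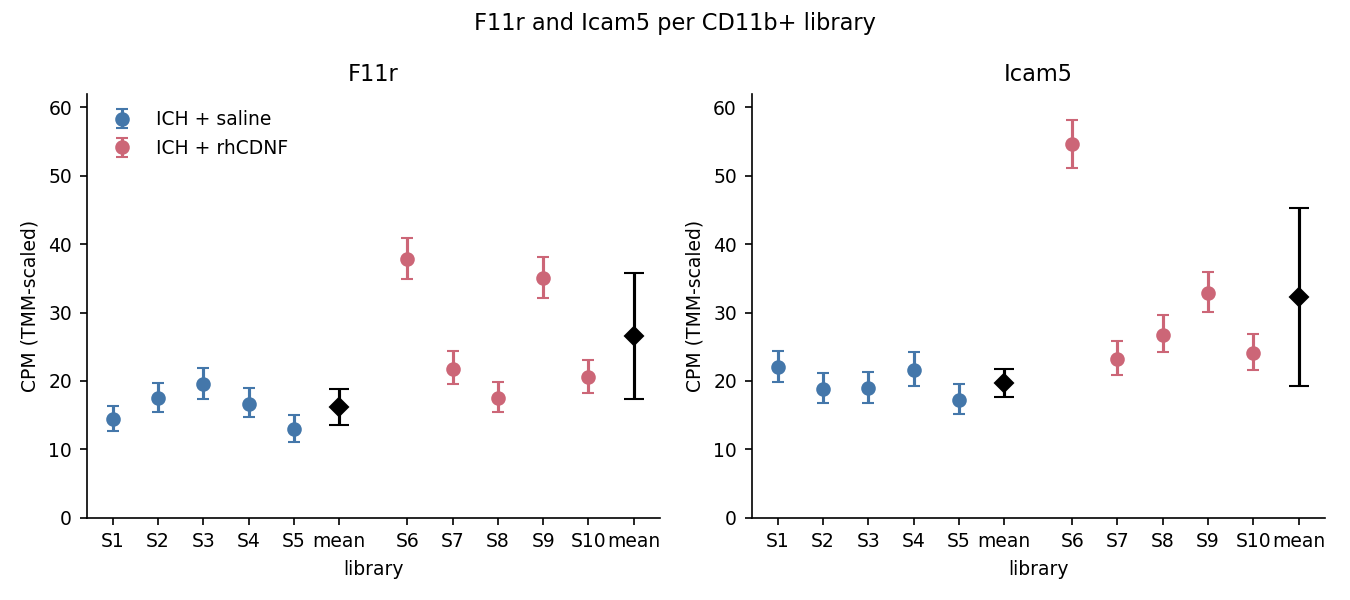
CPM of F11r (left) and Icam5 (right) in each library, the ICH + saline libraries S1 to S5 first and the ICH + rhCDNF libraries S6 to S10 after them. Colored points carry 95% Poisson intervals, black diamonds the mean and SD of a group (n = 5). S6 is highest for both genes, at 37.8 CPM for F11r and 54.6 CPM for Icam5, and S9 is next.

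The spread between libraries was wider in the rhCDNF group for both genes, and this was not particular to them. Over the genes compared, chi-square per gene between libraries was 8.494 to 19.01 within the saline group. Within the rhCDNF group it was 31.9 to 62.45 for pairs with S6 and 8.002 to 29.05 for the other pairs. For F11r the SD was 16.04% of the mean in the saline group and 34.6% in the rhCDNF group, and for Icam5 it was 10.4% and 40.2%. Each library held 181 to 646 counts of F11r and 241 to 933 counts of Icam5, which gives a counting error of 3.93% to 7.43% of the value for F11r and of 3.27% to 6.44% for Icam5. The wide spread of the rhCDNF group is thus several times the counting error. The library lowest for F11r, S5, was also lowest for Icam5.

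The difference of both genes rested in large part on S6 and S9. With each library left out in turn, the log2 fold change ranged from 0.55 to 0.83 for F11r and from 0.44 to 0.81 for Icam5, and both lowest values came without S6. Icam5 moved the most, from 0.71 to 0.44 (SE 0.11) without S6. Without both S6 and S9, an alternative chosen after their values were seen, it was 0.30 (SE 0.13) for F11r and 0.32 (SE 0.092) for Icam5. The 3 remaining rhCDNF libraries averaged 19.96 CPM of F11r and 24.7 CPM of Icam5, 1.23 and 1.25 times the mean of the saline group. The direction was the same under every setting, with the higher level in the rhCDNF group. This is no separate support, as the genes were chosen by this comparison. For Icam5, where the groups did not overlap, leaving libraries out could not have reversed it. DESeq2, the likelihood ratio test, another scaling and no filter on low counts all gave a log2 fold change of 0.71 for both genes.

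**Figure D2:**
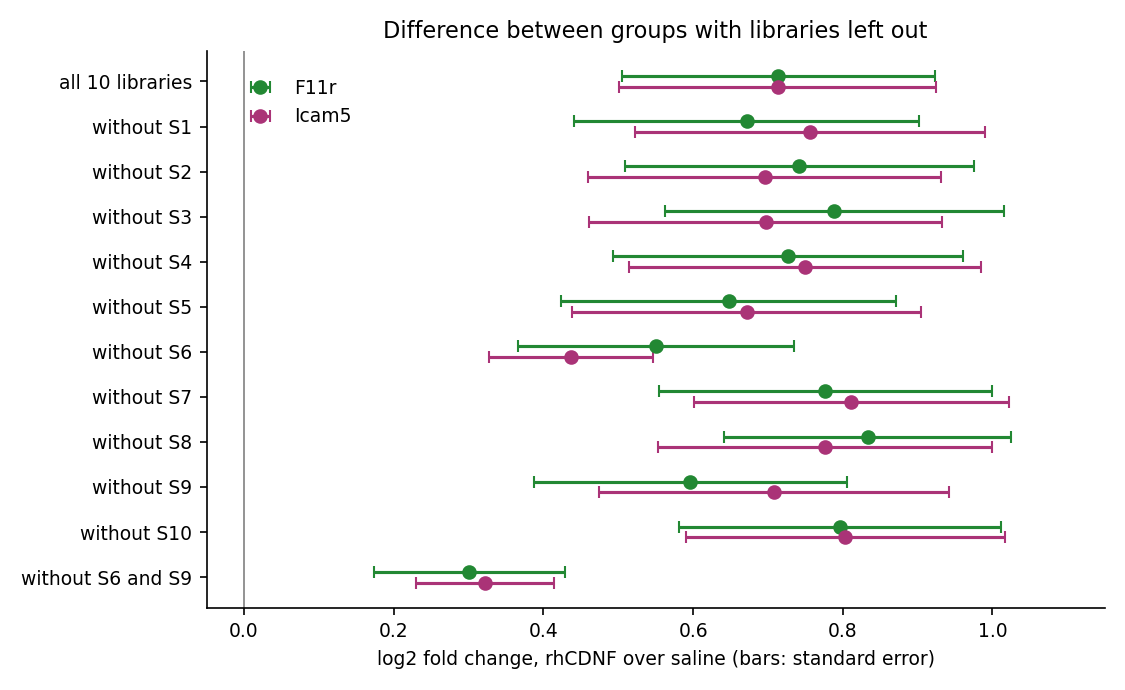
Log2 fold change of rhCDNF over saline (x axis) for F11r and Icam5 from edgeR's fit with all 10 libraries, with each library left out, and without S6 and S9. Bars are standard errors. The points lie between 0.30 and 0.83, and leaving out S6 moves both genes the most among single libraries.

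Whether F11r and Icam5 vary together was asked of deviations from the group means on the log2 CPM scale. These leave out the mean difference the genes were chosen for, but not a choice that can favor genes high in S6 and S9. Those libraries carried much of the difference, so the p-values of the relations are not free of that choice. Over the 10 libraries, Pearson's r was 0.73 (exact permutation within groups, two-sided, p = 0.0511) and Spearman's rho was 0.70 (p = 0.0592, same test). Adjusted over the 5 relations computed, these p-values were 0.128 and 0.136. Without S6 and S9, the libraries farthest from the median, r was -0.09 (exact permutation p = 0.851, n = 8), so the relation rested on those libraries. S6 and S9 were first and second in both genes, by unequal margins. In S6, F11r was 0.58 and Icam5 0.83 above its group mean on the log2 scale, and in S9 they were 0.47 and 0.10 above it. S9 was thus near S6 in F11r and much closer to its group in Icam5.

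Microglia are the resident phagocytes of the brain, and their resting state is marked by genes such as Sall1, a transcription factor of microglial identity, P2ry12, a purinergic receptor, Tmem119, a surface protein, and Csf1r, the receptor of the growth factor they live on. 11 of the 18 genes of a list of microglia genes could be named in these libraries, and none of them was at 0. The names exist only for genes in the part of the paper's table with the smallest p-values of this contrast. The differences of the list between groups were thus in part chosen, and high levels in S6 and S9 can be chosen with them. All 11 averaged higher with rhCDNF, with a median log2 fold change of 0.44, and 0 of the 11 had an adjusted p under 0.05 in the quasi-likelihood test of edgeR. Of the 778 named genes tested, 63.1% had a positive log2 fold change, against 50.4% of all genes tested, where the median was 0.00093. The median size of the change without its sign was 0.34 for the named genes and 0.10 for all. Summed over the 11 microglia genes, the level ranged from 5725 to 7038 CPM in the saline group. In the rhCDNF group it was 11393 CPM in S6 and 12206 CPM in S9, and 6400 to 6642 CPM in the other 3 libraries. Cst3 and Csf1r made up most of this sum. Cst3 was at 5317 CPM in S6, 4855 CPM in S9 and 1920 to 2597 CPM elsewhere. Csf1r was at 3179 CPM in S6, 3690 CPM in S9 and 2210 to 2702 CPM elsewhere. Of the 11 genes, 4 were highest in S6 and 7 in S9. Of all genes tested 20.8% and 8.96% were, but these shares were not computed for the named genes alone. The 2 libraries with the most F11r and Icam5 were also those with the highest summed level of these 11 genes. In bulk samples, more cells of a type and more RNA per cell cannot be told apart.

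With the mean of these 11 genes, the deviations of F11r had r = 0.84 (exact permutation within groups, p = 0.0419, adjusted p = 0.128 over the 5 relations) and rho = 0.73 (p = 0.0759, adjusted p = 0.136, same exact test). Icam5 had r = 0.69 (exact permutation p = 0.0958, adjusted p = 0.160) and rho = 0.70 (p = 0.0817, adjusted p = 0.136, same exact test). Without S6 and S9, r fell to 0.19 for F11r (exact permutation p = 0.693, n = 8) and was -0.11 for Icam5 (exact permutation p = 0.801, n = 8). Gene by gene, F11r had a positive r with 11 of the 11 microglia genes within groups, from 0.50 to 0.93, and Icam5 with 11 of 11, from 0.29 to 0.83. Without S6 and S9 the sign was positive for 6 of 11 with F11r and for 5 of 11 with Icam5. These genes share the same libraries and are not independent, and their names come from a choice that can favor high levels in S6 and S9. In the other 8 libraries, no common variation of either gene with the microglia genes was detectable.

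**Figure D3:**
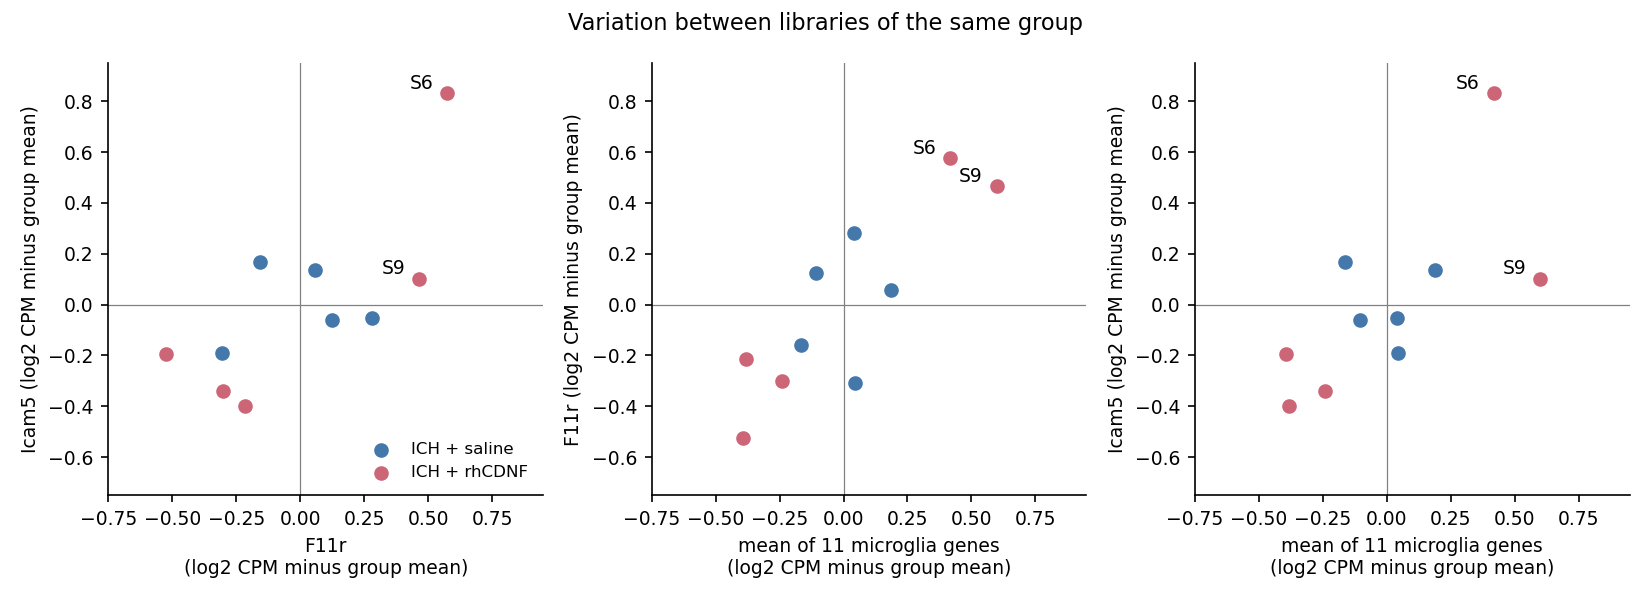
Deviations from the group mean on the log2 CPM scale for each of the 10 libraries, F11r against Icam5 (left) and the mean of 11 microglia genes against F11r (middle) and Icam5 (right). S6 and S9 lie toward the upper right in all panels, with Icam5 0.83 above its group mean in S6 and 0.10 in S9, and over the other 8 libraries r is -0.09, 0.19 and -0.11.

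Monocytes and macrophages that enter from the blood were the other source of CD11b+ cells considered. 6 of 13 genes of that list could be named, among them F5, a coagulation factor, Emilin2, a matrix protein, and Lyz2, lysozyme. Their summed level ranged from 2470 to 3307 CPM in the saline group and from 1612 CPM in S6 to 3119 CPM in S9 in the rhCDNF group. Lyz2 made up most of this sum, with 1306 CPM in S6 and 1621 to 2739 CPM elsewhere. F5, Emilin2, Lyz2, Ms4a7 and Arg1 were at their lowest in S6, the library with the most F11r and Icam5. F10, another coagulation factor and the remaining gene of the 6, went the other way, with 39.7 CPM in S6, 21.9 CPM in S9 and 8.61 to 15.1 CPM in the other libraries, and a log2 fold change of 0.65 (SE 0.36). The deviations of F11r had r = -0.00017 with the mean of this list (exact permutation p = 0.9997, adjusted p = 0.9997) and rho = 0.10 (exact permutation p = 0.807, adjusted p = 0.807). Without S6 r was 0.66 (adjusted p = 0.249, exact permutation). Icam5 had r = -0.46 (exact permutation p = 0.398, adjusted p = 0.498) and rho = -0.31 (exact permutation p = 0.458, adjusted p = 0.572), and r = 0.38 without S6 (adjusted p = 0.453, exact permutation). Without S6 and S9 r was 0.15 for F11r and -0.36 for Icam5 (exact permutation p = 0.718 and 0.403, n = 8).

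Of cells that carry F11r or Icam5 elsewhere, few markers could be named. None of the 13 neuron genes, 7 platelet genes or 9 neutrophil genes of the lists was tied to an identifier, so the share of neurons, in which telencephalin is best known, could not be set beside Icam5. Of the 7 endothelial genes, Vwf, the von Willebrand factor, was at 21.8 to 59.8 CPM in the saline group and 32.8 to 74.97 CPM in the rhCDNF group. It was highest in S7 and S6, and in S9 it was at 32.8 CPM. Of the 7 astrocyte genes, 3 could be named. Their summed level was 143 to 203 CPM in the saline group and 181 to 248 CPM in the rhCDNF group, highest in S6. Slc1a3 made up most of this sum, with 210 CPM in S6. The others did not peak in S6. Gfap was at 45.2 CPM in S10 and 40.6 CPM in S7, against 36.0 CPM in S6 and 15.1 CPM in S9. Slc1a2 was highest in S7, at 2.80 CPM, against 2.40 CPM in S6. Red cell transcripts, of which Hba-a1 and Hbb, the globin chains, could be named, summed to 1060 CPM in S8 and to 10.3 to 54.7 CPM in the other 9 libraries. S8 was the rhCDNF library lowest in F11r, at 17.6 CPM, but the median of that group in Icam5, at 26.8 CPM. The part of such cells in the levels of F11r and Icam5 was not tested.

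Of 13 genes of the JAM and ICAM families and related adhesion molecules, 3 could be named besides F11r and Icam5, and all averaged higher with rhCDNF and peaked in S6. Here too the names go with small p-values of this contrast, and 63.1% of named genes had a positive log2 fold change. Of all genes tested 20.8% peaked in S6, but that share was not computed for the named genes alone. 0 of these 3 had an adjusted p under 0.05 in the quasi-likelihood test of edgeR. Icam1 was the most abundant of the adhesion genes in CPM, a scale that does not allow for length. It was at 558 ± 59.8 CPM in the saline group and 729 ± 199 CPM in the rhCDNF group (SD, n = 5 each), with 1019 CPM in S6 and 855 CPM in S9. The log2 fold change of Icam1 was 0.39 (SE 0.16), and 3 rhCDNF libraries lay above every saline library. Vcam1, the ligand of the integrin VLA-4, was at 19.6 ± 3.44 CPM and 31.2 ± 14.0 CPM (SD, n = 5 each), with 52.1 CPM in S6 and 36.6 CPM in S9 and a log2 fold change of 0.68 (SE 0.26). The pattern of S6 first and S9 second in these genes was that of F11r and Icam5. Jam2 varied less within the rhCDNF group and more within the saline group, from 18.5 to 38.6 CPM in the saline group and from 32.6 to 42.3 CPM in the rhCDNF group. The log2 fold change of Jam2 was 0.49 (SE 0.17), and saline library S5, lowest in F11r and Icam5, was the highest of its group in Jam2.

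As Icam5 lies beside Icam4 and Icam1, its counts were also set against those of Icam1 within each library. Icam5 counts were 3.59 ± 0.73% of Icam1 counts in the saline group (range 2.95% to 4.81%) and 4.35 ± 0.64% in the rhCDNF group (range 3.77% to 5.36%; SD, n = 5 each). The highest share was in S6 and the next in saline library S1, so the groups overlapped in this ratio. Whether the authors' counting used strand is not given in the sources used here. Without it, reads of genes that overlap on opposite strands cannot be told apart. Whether Icam5 overlaps a neighbor was not examined.

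Partners of JAM-A and of telencephalin at the membrane were described in the same way. 4 of 21 such genes could be named, of which 3 had a higher and 1 a lower mean in the rhCDNF group. The names again go with small p-values of this contrast. Of all named genes tested, 63.1% had a positive log2 fold change, against 50.4% of all genes tested. 0 of these 4 had an adjusted p under 0.05 in the quasi-likelihood test of edgeR. Ocln, which encodes the tight junction protein occludin, was at 36.4 to 47.6 CPM in the saline group and 37.0 to 62.4 CPM in the rhCDNF group, with a log2 fold change of 0.27 (SE 0.13). Rapgef2 and Rapgef6, exchange factors for the small GTPase Rap that acts on integrins, had log2 fold changes of 0.28 (SE 0.13) and 0.18 (SE 0.081). Actn1, the actin crosslinker alpha-actinin, was at 57.0 to 71.1 CPM in the saline group and 41.6 to 62.9 CPM in the rhCDNF group. Actn1 had a log2 fold change of -0.23 (SE 0.11), and its lowest libraries were S6 and S9. None of the 12 leukocyte integrin genes could be named, neither the chains of LFA-1, the partner of telencephalin, nor Itgam, the CD11b chain on which the cells were isolated, so that label could not be checked on its own gene.

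**Figure D4:**
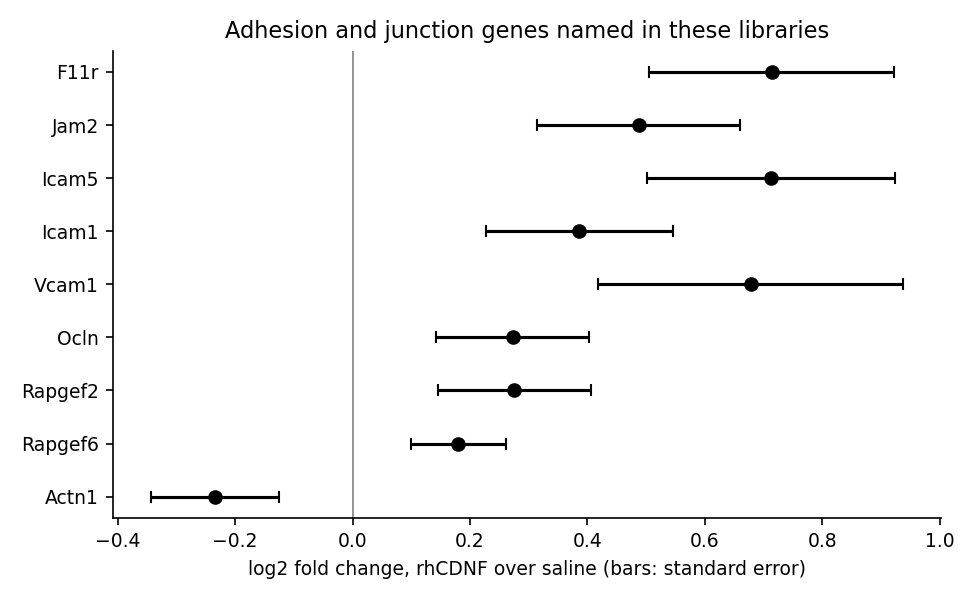
Log2 fold change of rhCDNF over saline (x axis) with standard errors for F11r, Icam5 and the 7 adhesion and junction genes that could be named, from edgeR's fit of all 10 libraries. F11r and Icam5 lie at 0.71 each, Vcam1 at 0.68 and Actn1, the one gene lower in the rhCDNF group, at -0.23.

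The genes whose log2 CPM over the 10 libraries ran most like each of the 2 were then listed, as a description. This likeness was not computed without S6 and S9, on which the relation of F11r and Icam5 rested. With F11r, Icam5 had a Pearson r of 0.86 and stood 207th of 12198 genes, and 81 genes had an r over 0.9. The named gene most like F11r was Il6st, which encodes the gp130 subunit of receptors for interleukin-6 and related cytokines, with r = 0.99, and 0.98 for deviations within groups. Il6st was at 97.3 ± 17.4 CPM in the saline group and 155 ± 53.8 CPM in the rhCDNF group (SD, n = 5 each). It was followed by Rab3ip, an exchange factor for a Rab GTPase, Adgra2, an adhesion G protein-coupled receptor, Fam124a and Gal3st3, a sulfotransferase, with r of 0.96 to 0.97. Gal3st3 was at 0.554 ± 0.208 and 1.09 ± 0.529 CPM (SD, n = 5 each) and rests on few counts.

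With Icam5, F11r stood 200th, and 57 genes had an r over 0.9. The named genes most like Icam5 were Plekha5 and Suco, both with a broad expression, Tagln, the actin-binding protein transgelin, Ago1, an Argonaute protein of gene silencing, and Whrn, the scaffold protein whirlin, with r of 0.94 to 0.96. No gene was among the first 5 named for both F11r and Icam5. Tagln was at 8.07 ± 0.428 CPM in the saline group and 12.2 ± 3.71 CPM in the rhCDNF group (SD, n = 5 each), with 18.8 CPM in S6. The identifiers of Il6st and Tagln were also the next best candidates when F11r and Icam5 were given their identifiers, since names and likeness rest on the same values. 53 of the 100 genes most like F11r and 46 of the 100 most like Icam5 had a name. Of the 12199 genes tested, 778 had a name. Names go with small p-values of this contrast, and likeness over all libraries takes in the difference between groups. The number with a name is therefore no separate observation.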

How the data were processed

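CD11b+ cells of 10 rats were sequenced, 5 per group. The authors depleted ribosomal RNA, made directional single-end libraries, trimmed reads with Trimmomatic 0.36, aligned them to Rnor_6.0 with STAR (2.5.3a in the submitters' processing notes, another release in the paper's methods) and obtained gene counts from featureCounts (Subread 1.6.4). The deposited values are raw counts per Ensembl gene. Columns were assigned to groups by the library numbers that head the columns of a supplementary table of the paper, and not to single samples.

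Identifiers were tied to the 1998 named rows of that table that were used by the SD over libraries of the log2 ratio of both measures, taking pairs that were the smallest in both directions with the next at least 1.5 times as large, which tied 789 genes. A wrong tie is possible where the true gene lies outside those rows. Names, the table's order and the lists go with the smallest p-values, and the members and lists were chosen with earlier results of these data known.

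Counts were fitted across all genes with edgeR 4.0.16 (filter by expression, TMM, quasi-likelihood test, no covariate, threshold 0.05) in R 4.3.3, with DESeq2 1.42.0 and edgeR's likelihood ratio test as alternatives, besides another scaling, no filter and leaving out each library. The fits were tested on simulated data. Relations used log2 CPM with a prior count of 2, deviations from group means and all 14400 arrangements of libraries within groups (SciPy 1.17.1). Named genes were F11r, Icam5, list members with a name and the 5 named genes most like each. Within groups, chi-square between libraries was at least 8.002 per gene, so none was a copy of another. The authors' fold changes and p-values in the paper's table were not used.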

Additional observations from a re-analysis of the deposited data

Results flagged for a closer look

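Over F11r, Icam5, the genes most like them and the named genes of the lists described above, 42 genes in all, 7 of 84 groups of 5 libraries held a library whose gap to the next exceeded the 95% limit of Dixon's test, which chance exceeds in about 1 in 20 groups. In the rhCDNF group, Hba-a1 was at 854 CPM and Hbb at 206 CPM in S8, against 11.01 to 42.8 CPM and 4.40 to 13.6 CPM in the other libraries. In S6, Emilin2 was at 131 CPM against 249 to 295 CPM in the other rhCDNF libraries, and Rapgef6 was at 174 CPM against 133 to 144 CPM. Tagln at 18.8 CPM in S6 against 10.1 to 11.3 CPM, and Plekha5 at 74.9 CPM against 47.1 to 54.9 CPM, were named for their likeness to Icam5, which is itself highest in S6, so their high S6 values are no separate observation. Gal3st3 was at 0.915 CPM in saline library S3 and at 0.412 to 0.550 CPM in the other saline libraries, a level of few counts. Neither F11r nor Icam5 exceeded the limit in either group. As the test looks at the gap to the next library, it could not flag F11r in S6, at 37.8 CPM, beside S9 at 35.0 CPM. Icam5 stayed under the limit with 54.6 CPM in S6 against 23.2 to 32.9 CPM in the other rhCDNF libraries.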

How the results depend on the processing

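Genes higher in the rhCDNF group at an adjusted p under 0.05 numbered 0 by edgeR's quasi-likelihood test, 8 by DESeq2 and 3 by edgeR's likelihood ratio test, and genes lower numbered 0 under all settings. With each library left out, both counts stayed at 0. The log2 fold change of F11r ranged from 0.55 to 0.83 and that of Icam5 from 0.44 to 0.81 with 1 library left out, and they were 0.30 and 0.32 without S6 and S9. Of the relations within groups, r between F11r and Icam5 ranged from 0.55 to 0.78 with 1 library left out and was -0.095 without S6 and S9. With the microglia genes, r ranged from 0.79 to 0.91 for F11r and from 0.62 to 0.85 for Icam5, the latter turning to -0.11 without S6 and S9. With the monocyte and macrophage genes, r of F11r was near 0 and changed sign with the setting, at 0.0041 with a prior count of 0.5, 0.0015 with RLE scaling, 0.15 without S6 and S9, and from -0.54 to 0.66 with 1 library left out. For Icam5 it ranged from -0.76 to 0.38. No relation passed an adjusted p of 0.05 under any of these settings. The relations with neuron genes were not run because no such gene could be named. No paired analysis was possible because the columns of the count table do not carry the replicate numbers of the labels.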
